A study of Mus musculus with 8 samples.

Results

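The CpG islands named here for microRNA (miRNA) genes were read on 8 arrays of methylated DNA from mouse embryonic stem (ES) cells, liver and spleen. A probe was a member when the newer design of the array gave it the name Mir followed by a number and placed it on chromosomes 1 to 19. The rule found 486 of 88737 probes, under 89 names, and used no measured value. Of these, 462 probes had input DNA well above background on every array and no outlier mark. An island is a run of probes of 1 name with gaps of up to 500 bp between starts, and there were 99. Of the 99, 75 held at least 3 usable probes and are described below, under 68 names, beside 13095 autosomal islands of that size on the array (13447 with the X chromosome). The islands with fewer probes numbered 24, and 1 of them, Mir345, had no usable probe. A further 6 miRNA names lay on the X chromosome and were outside the rule.

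The series examines a demethylation pathway at CpG islands in ES cells. DNA was sonicated and precipitated with a monoclonal antibody against 5-methylcytidine, and bound DNA (Cy5) was hybridised against input DNA of the same sample (Cy3). The ES cells were wild type, aid-/-, mbd4-/-, or carried a knockdown of Gadd45a. The liver and spleen came from aid-/- and mbd4-/- C57BL6/J mice aged 6 months, and the tissue DNA of the 2 genotypes came from different providers per the labels. Aid is a cytidine deaminase, Mbd4 a DNA glycosylase that binds methylated CpG, and Gadd45a a stress response protein linked to DNA repair. Each of these 8 groups is 1 array, and the tissues have no wild-type array here. The labels do not say whether an ES line is 1 clone or how the knockdown was made.

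A miRNA is cut from a hairpin in a longer transcript, first by Drosha and Dgcr8 in the nucleus and then by Dicer in the cytoplasm, and an Argonaute protein carries it to messenger RNAs that pair with its seed. Many miRNA hairpins lie in introns of protein-coding genes and are made from the promoter of that host gene. Others have promoters of their own, often with a CpG island, and DNA methylation at such islands goes with silencing of some of them, among them members of the miR-9, miR-124 and miR-34 families in tumours.

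The name of a member is not proof that its probes lie at a miRNA gene. In the older design of the same array, 133 of the 486 probes carried a miRNA name, and 71 of the 89 names stood only on probes named there for another gene or transcript. In the RefSeq gene table (assembly GRCm38.p6, used for names and neighbours), 87 names had a current symbol, and 67 of these genes lie inside another gene. For 45 of the 89 the containing gene is the gene named in the older design, such as Ryr1 for Mir1963 and Mest for Mir335. Only 22 probes, of 20 names, shared 20 or more bases in a row with the hairpin of their own miRNA. Names without an entry among the RefSeq miRNA sequences, such as the Mir124a genes, Mir193 and Mir320, could not be matched. The RefSeq promoter table spans 250 bases before to 50 after each gene start. In it 30 of the 486 probes (6.2%) lay in a window, 2 of them that of a transcript named for a miRNA (Mir9-3hg). Others lay in the window of the gene that contains the miRNA, such as 4 probes of Mir106b at Mcm7 and 3 of Mir207 at Dnaja1. The members are therefore called miRNA-named islands, and their values describe the DNA under the probes.

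The mature miRNAs of the members on which the results turn are printed below, from RefSeq (GRCm38.p6), with the seed (bases 2 to 8) in capitals. Of the 89 names, 81 had an entry in that table.
mmu-miR-335-5p: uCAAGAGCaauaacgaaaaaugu
mmu-miR-10a-5p: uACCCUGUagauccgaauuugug
mmu-miR-7a-5p: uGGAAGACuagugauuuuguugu
mmu-miR-9-5p: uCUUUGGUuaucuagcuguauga
mmu-miR-219a-5p: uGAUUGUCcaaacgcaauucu
mmu-miR-34b-5p: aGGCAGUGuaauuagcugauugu
mmu-miR-449c-5p: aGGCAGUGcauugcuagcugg
mmu-miR-1963: uGGGACGAgaucaugaggccuuc
mmu-miR-1905: cACCAGUCccaccacgcgguag
The Mir9-1, Mir9-2 and Mir9-3 genes share the miR-9-5p seed CUUUGGU, Mir219-1 and Mir219-2 share the miR-219a-5p seed GAUUGUC, and miR-34b-5p and miR-449c-5p share GGCAGUG.

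The probes of 3 islands are printed because these islands showed the largest difference between ES lines (Mir335), the difference between ES cells and tissues that passed the test (Mir10a), and opposite differences between genotypes in ES cells and liver (the fourth of the Mir9-3 islands). They are given as the array design has them, whose strand the files do not state, with positions in build mm9 and each CpG in capitals. The Mir335 probes came first.
Mir335 at chr6:30688134-30688178: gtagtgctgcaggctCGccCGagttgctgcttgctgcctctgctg
Mir335 at chr6:30688204-30688248: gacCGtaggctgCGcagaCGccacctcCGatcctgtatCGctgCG
Mir335 at chr6:30688293-30688337: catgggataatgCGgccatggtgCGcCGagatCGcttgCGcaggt
Mir335 at chr6:30688404-30688448: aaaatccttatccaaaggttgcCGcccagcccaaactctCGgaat
Mir335 at chr6:30688482-30688541: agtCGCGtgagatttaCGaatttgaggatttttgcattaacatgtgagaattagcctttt
Mir10a at chr11:96175762-96175817: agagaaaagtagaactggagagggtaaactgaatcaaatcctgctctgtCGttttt
Mir10a at chr11:96175973-96176032: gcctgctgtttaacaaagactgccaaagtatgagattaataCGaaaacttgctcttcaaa
Mir10a at chr11:96176215-96176259: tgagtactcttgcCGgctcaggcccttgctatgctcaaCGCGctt
Mir9-3 at chr7:86653310-86653361: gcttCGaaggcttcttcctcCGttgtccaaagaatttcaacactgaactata
Mir9-3 at chr7:86653464-86653508: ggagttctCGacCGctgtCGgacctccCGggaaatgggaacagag
Mir9-3 at chr7:86653575-86653627: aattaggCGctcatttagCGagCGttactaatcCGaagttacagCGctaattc
Mir9-3 at chr7:86653885-86653929: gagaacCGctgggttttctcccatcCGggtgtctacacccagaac
Mir9-3 at chr7:86653957-86654001: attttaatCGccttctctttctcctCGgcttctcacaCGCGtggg
Mir9-3 at chr7:86654047-86654091: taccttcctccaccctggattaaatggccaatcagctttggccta
Mir335 held 2 to 6 CpG per probe and Mir10a 1 to 3, while 1 of the 6 Mir9-3 probes held none.

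Every value below is the mean over an island's probes of log2(bound over input), with the median of the array set to 0, and an SD is over those probes. It shows how strongly a region was bound relative to other regions on that array and is no methylation percentage. A lower value from fewer methylated cells and one from less methylation per cell cannot be told apart. The plateau, the 98th percentile of autosomal islands, ran from 2.25 (aid-/- liver) to 4.44 (ES aid-/-), and an island is called highly bound where it reached 50% of the plateau of its array. Bound signal was well above background at 68.6% of member probes on the ES aid-/- array and at 85.9% to 95.9% on the other 7. All 4 arrays of scan day 1 are wild-type or aid-/- (ES aid-/-, ES wild type, aid-/- liver and spleen), mbd4-/- liver and spleen were scanned on day 2, and ES mbd4-/- and the Gadd45a knockdown on a day each. Probes of Mbd4 and Gadd45a on the array report binding and check neither a deletion nor a knockdown. Of the lists of cell type markers, 2 of 9 ES genes, 1 of 6 liver genes, 2 of 9 spleen and blood genes and 3 of 5 fibroblast genes had an island. These report DNA, not RNA, and do not check the tissue, and their part in the results was not tested.

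Most miRNA-named islands were highly bound on no array, as were most islands of the array. Of the 75, 64 (85.3%) were highly bound on none, the same share as over all autosomal islands (85.4%). Binding below the array median on all 8 arrays was seen at 29 islands (38.7%), where 25.2% of all autosomal islands lay there. The opposite, binding above the median on all 8, was seen at 6 islands (8%), against 16.1% of all. The median of the members was −0.33, −0.38, −0.47 and −0.33 on the aid-/-, wild type, mbd4-/- and Gadd45a knockdown ES arrays. In liver it was −0.17 (aid-/-) and −0.34 (mbd4-/-), and in spleen −0.22 and −0.29 in that order. All autosomal islands had medians from −0.20 to −0.02, so the members lay lower on each array. The median CpG density of their probes, 5.56 per 100 bases, was close to the 5.49 of all autosomal islands, and GC was 56.4% and 56.8%. Over the 75 islands the mean level went with CpG density at a Spearman rho of −0.13 and with GC at 0.13, as a description over islands that share arrays.

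**Figure D1:**
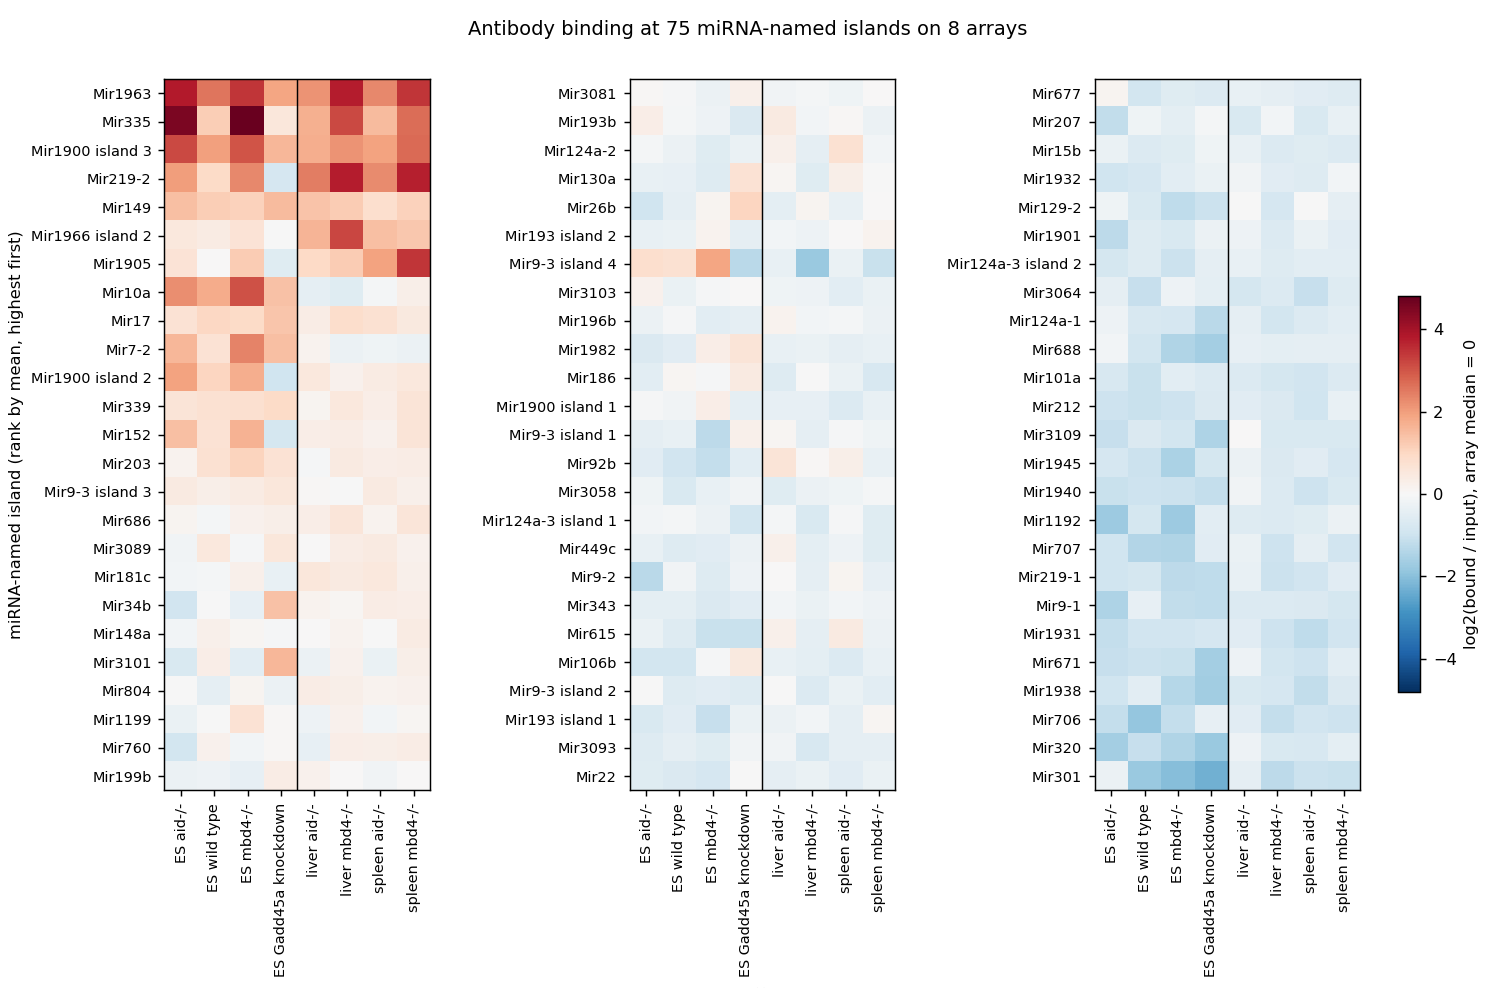
Each row is 1 of the 75 miRNA-named islands with at least 3 probes, ranked by its mean over the 8 arrays, each column is 1 array, and colour gives log2(bound over input) with the array median at 0 (red above, blue below). The darkest red is in the top rows of the first panel, and 29 islands are below 0 on all 8 arrays.

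The highly bound islands were few. The number reaching 50% of the plateau was 4, 3, 6 and 7 of 75 on the aid-/-, wild type, mbd4-/- and Gadd45a knockdown ES arrays (7.89%, 6.1%, 8.16% and 7.28% of all autosomal islands). In liver it was 6 on the aid-/- array (9.09%) and 5 on the mbd4-/- array (8.48%), and in spleen 6 (9.62%) and 5 (8.6%) in that order. In all, 11 islands were highly bound on at least 1 array (14.6% of all), 3 on all 4 ES arrays (3.85%), 4 on all 4 tissue arrays (7.4%) and 2 on all 8 (3.58%). These shares lie near those of all islands.

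The 2 islands that were highly bound everywhere were those of Mir1963 and the third of Mir1900. Mir1963 (chr7:29870710-29871362, 7 probes) is an island in Ryr1, the calcium release channel of skeletal muscle. It read 3.80, 2.55, 3.44 and 1.89 in aid-/-, wild type, mbd4-/- and Gadd45a knockdown ES cells, then 2.14 in aid-/- liver, 3.79 in mbd4-/- liver, 2.29 in aid-/- spleen and 3.42 in mbd4-/- spleen. The lowest of these, in the Gadd45a knockdown, was still above 50% of that array's plateau. Mir1900 names 3 islands along Icam5, a cell adhesion gene of neurons in the forebrain. The third (chr9:20842972-20843352, 3 probes) read 3.16, 1.97, 3.01 and 1.60 in the ES lines in the same order, 1.76 and 2.15 in liver, and 1.92 and 2.73 in spleen. The first (chr9:20837411-20838296) stayed between −0.64 and 0.31 on all arrays. Between them, the second (chr9:20841123-20842120) read 1.94, 1.03 and 1.75 in aid-/-, wild type and mbd4-/- ES cells, −0.97 in the Gadd45a knockdown and 0.20 to 0.50 in the tissues. Binding along this 1 gene thus ran from near the array median to above 50% of the plateau.

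Mir149, in the heparan sulphate proteoglycan gene Gpc1 (chr1:94744954-94745474, 4 probes), was intermediate and even. It read 1.43, 1.18, 1.12 and 1.54 in aid-/-, wild type, mbd4-/- and Gadd45a knockdown ES cells, 1.35 and 1.22 in liver and 0.82 and 1.102 in spleen. Only the Gadd45a knockdown and aid-/- liver values reached 50% of their plateaus. At the other end of the range, the 5 islands with the lowest mean were those of Mir301, Mir320, Mir706, Mir1938 and Mir671, with means over the 8 arrays from −1.28 to −0.94. The lowest, Mir301 (chr11:86922877-86923331, 3 probes, in Ska2), read −1.77, −2.04 and −2.31 in wild type, mbd4-/- and Gadd45a knockdown ES cells and −0.45 to −1.27 in the tissues. On the ES aid-/- array it read −0.26, with none of its 3 bound probes above background.

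By role, the 4 groups of miRNAs known from nervous tissue, Hox clusters, cell proliferation and p53 held 22 of the 75 islands. The neuronal group had 15 islands, of which 8 were below the median on all 8 arrays (25.2% of all autosomal islands) and 2 (Mir219-2 and Mir7-2) were highly bound on some array (14.6% of all). The Hox group had 3, for Mir10a, Mir196b and Mir615, and only Mir10a was highly bound. The proliferation group also had 3. Mir17, the first gene of a cluster amplified in lymphoma, read 0.34 to 1.32 over the 8 arrays, Mir106b −0.89 to 0.47 and Mir92b −1.15 to 0.60. No member belonged to the clusters typical of pluripotent cells (miR-290 and miR-302) or to the muscle group. Mir203, an epithelial miRNA, read −0.04 to 1.07, Mir181c, from a blood-linked family, −0.36 to 0.54, and Mir148a, abundant in liver, −0.13 to 0.40. The remaining 49 islands, outside these groups, had 21 below the median on all arrays, beside the same 25.2% of all.

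The question of which islands differ between cell types was put to the 4 ES arrays against the 4 tissue arrays, with limma over all 13447 islands. Arrays of different genotype stood in as replicates of a tissue, and nothing says that they came from separate cultures or animals, so p-values measure the spread between these arrays. In this fit 1 of the 75 islands was higher in ES cells and none was lower at an adjusted p under 0.05, against 10 higher (0.0744%) and 23 lower (0.171%) of all. At an unadjusted p under 0.05 there were 10 of 75 (13.3%), 2 higher and 8 lower, where 15.6% of all islands passed. The median difference, ES minus tissues, was −0.17 over the members and −0.08 over all islands. All 4 ES arrays were above all 4 tissue arrays at 3 islands (3.93% of all), and below them at 7 (7.66%).

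The island that passed was Mir10a, whose miRNA is encoded between Hox genes and regulates Hox messenger RNAs. Its 3 usable probes of 5 (chr11:96175762-96176362) carried the name Hoxb4 in the older design, and the RefSeq table places the miRNA gene inside Hoxb3. It read 2.23, 1.77, 3.05 and 1.41 in aid-/-, wild type, mbd4-/- and Gadd45a knockdown ES cells, −0.43 in aid-/- liver, −0.56 in mbd4-/- liver, −0.10 in aid-/- spleen and 0.27 in mbd4-/- spleen. All 4 ES arrays were thus high and the tissues near the array median, with no overlap. The difference was 2.32 (SE 0.34, limma adjusted p = 0.05 to 2 digits and just under the threshold). It was 2.26 within scan day 1, 2.49 between the aid-/- arrays and 3.20 between the mbd4-/- arrays. The probe with the highest values, at chr11:96175762-96175817, read 3.34, 2.84, 3.64 and 2.74 in the ES lines and −0.08 to 0.88 in the tissues. On the ES aid-/- array and on both aid-/- tissue arrays 1 of the 3 bound probes was not above background. The limma adjusted p was above 0.05 with scan day as a block (0.093), with normexp background (0.178), without the filter on dim probes (0.122) and without any 1 array other than the Gadd45a knockdown (0.0838 to 0.162). It was 0.00193 with each array scaled so that all had the same plateau (called 1 plateau below). Mir10a could not be tested with the deposited values, which held fewer than 3 of its probes on some array.

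The 2 other Hox cluster islands did not pass the test. Mir615 (chr15:102844615-102845415, 7 probes, named Hoxc5 in the older design) differed by −0.75 (SE 0.28, limma adjusted p = 0.26). It read −0.31 to −1.08 in the ES lines and −0.43 to 0.41 in the tissues, with overlap. Mir196b (chr6:52180125-52180942, 6 probes, named Hoxa9) read −0.52 to −0.05 in the ES lines and −0.29 to 0.18 in the tissues. The 2 ranges of Mir196b overlapped between −0.29 and −0.05.

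Mir7-2, a gene of the neuronal and endocrine miRNA miR-7a, was the other island with clearly higher values in all ES lines. Its 3 probes (chr7:86027339-86027656) lie at −5803 to −5529 bp from the miRNA in the older design, where a negative offset is on the 5′ side. They read 1.58, 0.69, 2.37 and 1.45 in aid-/-, wild type, mbd4-/- and Gadd45a knockdown ES cells, 0.17 and −0.26 in liver, and −0.22 and −0.27 in spleen. The lowest ES array, wild type, was above the highest tissue array, aid-/- liver. The difference was 1.67 (SE 0.34, limma adjusted p = 0.0886), and 1.16 within scan day 1. It passed the threshold with 1 plateau (limma adjusted p = 0.0214), with the deposited values (0.0229) and with genotype as a block (0.0288), and its p ran up to 0.314 without the mbd4-/- spleen array. The third island with ES above tissues, Mir339 (3 probes, chr5:139847981-139848304), differed by 0.39 (SE 0.19, limma adjusted p = 0.36).

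The 7 islands with all ES arrays below all tissue arrays were those of Mir320, Mir92b, Mir671, Mir1945, Mir804 and Mir343 and the second of Mir1966. The second Mir1966 island (chr8:108137855-108138550, 4 of 5 probes, in Ripor1) read 0.52, 0.39, 0.65 and −0.01 in aid-/-, wild type, mbd4-/- and Gadd45a knockdown ES cells. It read 1.62 in aid-/- liver, 3.19 in mbd4-/- liver, 1.44 in aid-/- spleen and 1.28 in mbd4-/- spleen. The difference was −1.50 (SE 0.34, limma adjusted p = 0.12), with the mbd4-/- liver array highest. Its limma adjusted p was 0.0475 with each array centred on the low mode of its log ratios, 0.00531 with 1 plateau, 0.00332 with the deposited values and 0.0465 without aid-/- liver. Mir92b (chr3:89031189-89031784, 6 probes, named Muc1 in the older design) read −0.56, −0.92, −1.15 and −0.52 in the ES lines, 0.60 and 0.04 in liver, and 0.28 and −0.37 in spleen. Its difference was −0.93 (SE 0.25, limma adjusted p = 0.16), and −0.99 with genotype as a block (aid-/- and mbd4-/- arrays only, limma adjusted p = 0.0356). That block called 5 islands higher in ES cells (4.74% of all) and 2 lower (3.96%). Those gained beside Mir7-2 and Mir92b were Mir335, the second Mir1900 island and Mir152, higher by 2.36, 1.45 and 1.20, and Mir1192, at −1.20 (limma adjusted p from 0.0261 to 0.0301). Mir320 (chr14:70843346-70843771, 5 probes, named Polr3d) read −1.10 to −1.78 in the ES lines and −0.23 to −0.77 in the tissues, a difference of −0.94 (SE 0.22, limma adjusted p = 0.13). The remaining 4 differed by −0.55 to −0.34.

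Mir219-2 and Mir1905 had larger differences than most of these, but with an overlap. Mir219-2 makes miR-219a, which acts in the maturation of oligodendrocytes. Its 9 probes (chr2:29700844-29702045) were named Urm1 in the older design. They read 2.01, 0.92, 2.30 and −0.80 in aid-/-, wild type, mbd4-/- and Gadd45a knockdown ES cells, 2.47 in aid-/- liver, 3.76 in mbd4-/- liver, 2.27 in aid-/- spleen and 3.75 in mbd4-/- spleen. ES mbd4-/- was just above aid-/- spleen, and the Gadd45a knockdown far below all others. The difference was −1.95 (SE 0.69, limma adjusted p = 0.24), and 0.03 and 0.0121 with 1 plateau and with the deposited values. Mir1905 (chr3:88340207-88341033, 7 probes, in Mex3a, an RNA-binding protein gene) read 0.64, 0.00, 1.20 and −0.59 in the ES lines in the same order, 0.97 and 1.22 in liver, and 1.92 and 3.43 in spleen. The highest ES array, mbd4-/-, lay between the liver arrays. The difference was −1.57 (SE 0.45, limma adjusted p = 0.17), and 0.0149 and 0.00856 under the same alternatives.

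**Figure D2:**
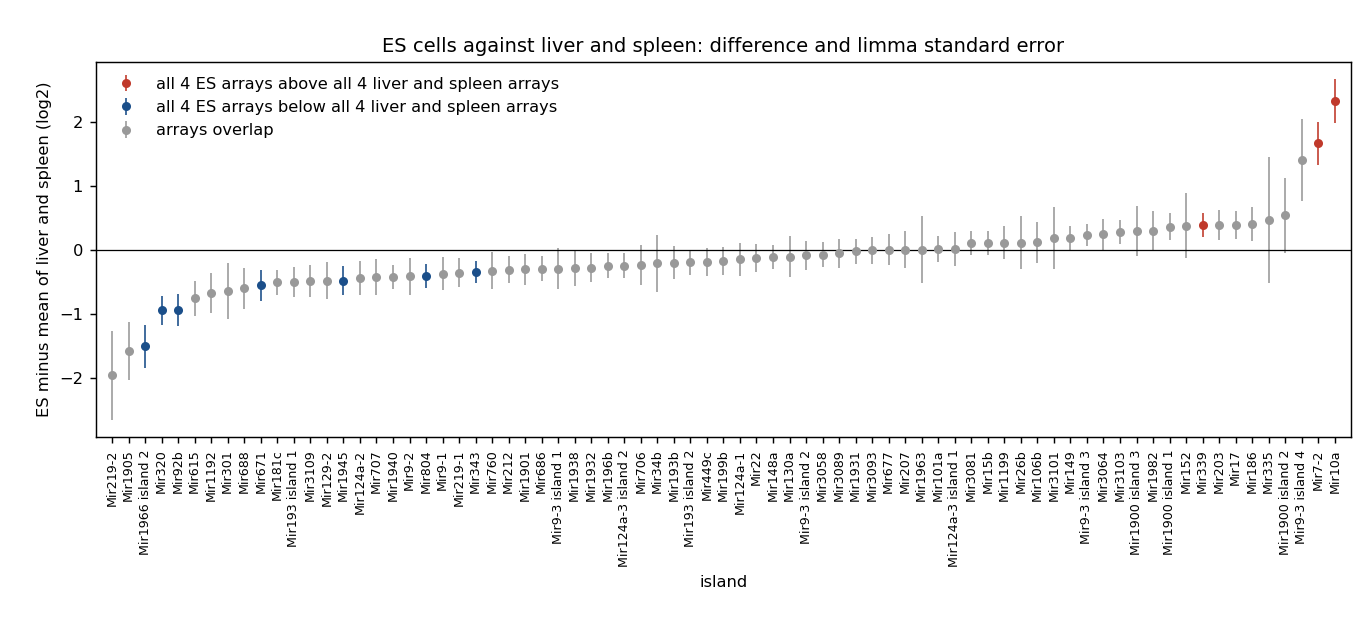
Each point is 1 of the 75 islands, with the mean of the 4 ES arrays minus the mean of liver and spleen on the log2 axis and the limma standard error as a bar. The 3 red islands (ES above tissues without overlap) include Mir10a at 2.32 and Mir7-2 at 1.67, and the 7 blue islands (ES below) reach −1.50 at the second Mir1966 island.

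Liver was then set against spleen, with 2 arrays each, which cannot show that the tissues are alike. No island differed by limma at an adjusted p under 0.05 among the members or among all islands (0% in either direction). At an unadjusted p under 0.05 there was 1 of 75, Mir1905, against 1.49% of all. Mir1905 differed by −0.96 between the aid-/- arrays and by −2.21 between the mbd4-/- arrays, a limma difference of −1.59 (SE 0.63, adjusted p = 1). The median difference, liver minus spleen, was 0.02 over the members and 0.03 over all.

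**Figure D3:**
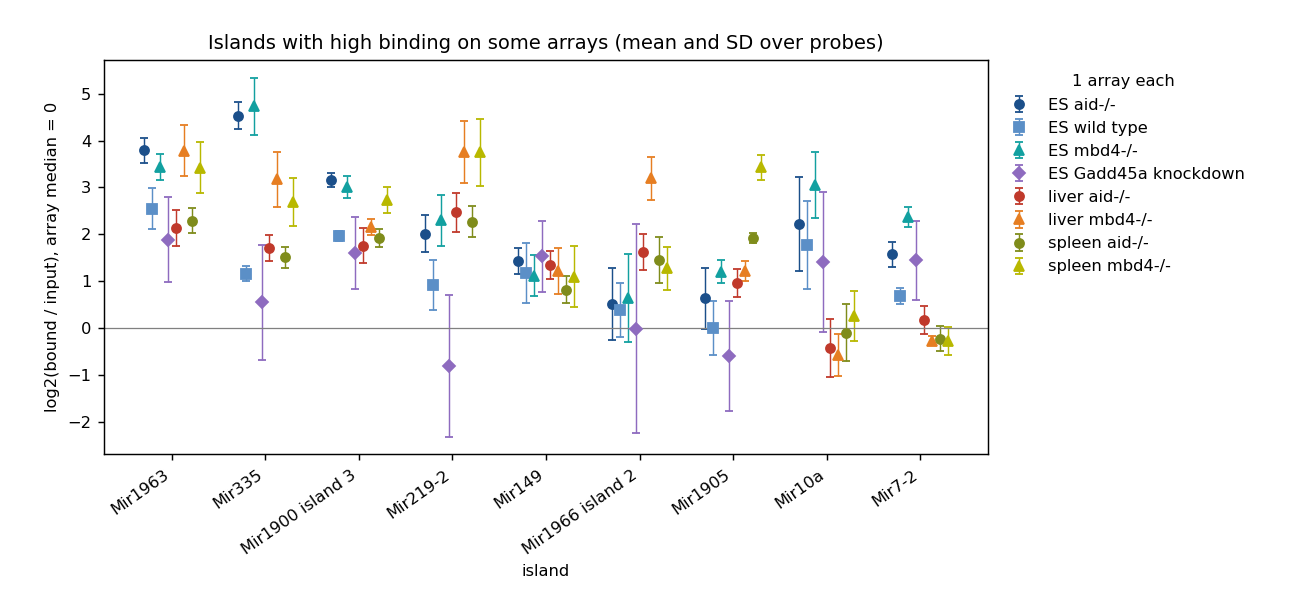
Points are island means of log2(bound over input) with the SD over probes for 9 islands, with 1 symbol per array. Mir1963 is high on every array, and Mir219-2 and Mir1905 are lowest in the Gadd45a knockdown. Mir10a and Mir7-2 are higher on every ES array than on any tissue array.

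Loss of the deaminase was compared with loss of the glycosylase by setting aid-/- against mbd4-/- over ES cells, liver and spleen, with tissue as a block. This fit holds no wild-type array, so a change that both knockouts share does not show in it. No island passed limma at an adjusted p under 0.05, among the 75 or among all (0% in either direction). At an unadjusted p under 0.05 there were 18 of 75 (24%), 10 higher and 8 lower in aid-/-, against 11% of all islands. The largest of these were Mir219-2, at −1.02 (SE 0.27), and Mir335, at −0.94 (SE 0.28), both at a limma adjusted p of 0.455. Of those higher in aid-/-, Mir301 was the largest, at 0.88 (SE 0.34, limma adjusted p = 0.455), with none of its 3 bound probes above background on the ES aid-/- array. Every aid-/- array was scanned on another day than its mbd4-/- partner, so genotype and scan day cannot be told apart. Without either ES array the fit rests on liver and spleen alone, and 4 islands then passed: Mir1963, Mir219-2 and Mir335 lower and the fourth Mir9-3 island higher (limma adjusted p from 0.00394 to 0.02). In that fit 0.469% of all islands were higher and 6.92% lower, beside 1 and 3 of the 75.

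The remaining comparisons set 1 array against another and have no test. An island was listed where its mean moved by 1 or more on the log2 scale and 75% or more of its probes moved the same way. The 3 comparisons with wild-type ES cells share that array.

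In ES aid-/- against ES wild type, 6 islands were listed as higher (8.7% of all islands) and 4 as lower (2.45%). Mir335 stood apart. Its miRNA lies in an intron of Mest, an imprinted gene expressed from the paternal allele, whose promoter island is methylated on the maternal allele. The 5 probes (chr6:30688134-30688541) read 4.53 (SD 0.29) in aid-/-, 1.17 (SD 0.15) in wild type, 4.73 (SD 0.61) in mbd4-/- and 0.55 (SD 1.23) in Gadd45a knockdown ES cells. In liver they read 1.72 (aid-/-) and 3.17 (mbd4-/-), and in spleen 1.52 and 2.69 in that order. The aid-/- and mbd4-/- ES lines were thus above all other arrays, and wild type and the knockdown below them. The difference from wild type was 3.37 (SD 0.41) in aid-/- and 3.56 (SD 0.69) in mbd4-/-. These were 2.25 and 2.56 with all arrays scaled to 1 plateau, and the deposited values gave 2.68 and 2.90. In the printed order of the probes, wild type read 1.17, 1.21, 0.99, 1.39 and 1.07, and aid-/- 4.26, 4.78, 4.71, 4.16 and 4.73. All 5 probes were higher in aid-/-, with no overlap between the 2 arrays, and the probe at chr6:30688482-30688541 was the one low probe of the knockdown, at −1.62.

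The other islands listed as higher in ES aid-/- were Mir301 (by 1.51), Mir1963 (1.25), the third Mir1900 island (1.20), Mir219-2 (1.09) and Mir677 (1.02). For Mir301 no bound probe was above background in aid-/-. With 1 plateau 2 islands were listed as higher, Mir335 and Mir301 (3.65% of all islands), and none as lower (1.07%). Those lower were Mir9-2 (by −1.12, SD 1.52), Mir9-1 (−1.11, SD 1.22), Mir760 (−1.07, SD 1.90) and Mir3101 (−1.04, SD 1.55). In each of these 4 the SD over probes was larger than the difference. At Mir9-2 1 of 4 bound probes was above background in aid-/-, and at Mir9-1 2 of 4.

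In ES mbd4-/- against ES wild type, 7 islands were listed as higher (7.55%) and none as lower (2.84%). After Mir335 came Mir7-2 (by 1.67, SD 0.24), Mir219-2 (1.38), Mir10a (1.28), Mir1905 (1.20), the fourth Mir9-3 island (1.18, SD 0.17) and the third Mir1900 island (1.04). The plateau of the mbd4-/- array was 4.25 and that of wild type 3.33. With 1 plateau, only Mir335 and Mir7-2 were still listed as higher, at 2.56 and 1.17 (2.95% of all islands).

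In the Gadd45a knockdown against ES wild type, 6 islands were listed as higher (6.66%) and 5 as lower (6.47%). The lower ones were the fourth Mir9-3 island (by −2.03, SD 1.095), the second Mir1900 island (−1.997, SD 0.95), Mir219-2 (−1.72, SD 1.55), Mir152 (−1.54, SD 0.45) and Mir1938 (−1.18, SD 1.51). In the knockdown 3 of 6 bound probes were above background at the fourth Mir9-3 island and 2 of 3 at Mir1938. Mir152 lies in Copz2 (chr11:96711362-96711757, 4 probes) and makes a miRNA that shares its seed with miR-148a and targets Dnmt1. It read 1.46, 0.71, 1.68 and −0.83 in aid-/-, wild type, mbd4-/- and Gadd45a knockdown ES cells and 0.22 to 0.61 in the tissues. The knockdown was the one array below 0. The difference at Mir152, Mir219-2 and the second Mir1900 island stayed past −1 under all 5 alternatives, with 9 islands listed as lower in place of 5 when arrays were scaled to 1 plateau (7.64% of all). The plateau of the knockdown array, 2.70, was the lowest of the ES arrays.

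Higher in the knockdown were Mir706 (by 1.48, SD 1.00), Mir26b (1.46, SD 1.17), Mir34b (1.43, SD 1.83), Mir3101 (1.28), Mir1982 (1.19) and Mir130a (1.09, but −0.37 with normexp background). The miR-34 genes are transcribed under p53, and Mir34b and Mir34c lie side by side. Mir34b (chr9:50911679-50912129, 3 probes) read −0.91, 0.00, −0.39 and 1.42 in aid-/-, wild type, mbd4-/- and Gadd45a knockdown ES cells and 0.08 to 0.37 in the tissues. The 1 usable probe of Mir34c (chr9:50911542-50911586) read 0.57, 1.17, 2.03 and 3.35 in the same ES lines and −0.51 to 1.32 in the tissues. Both were highest in the knockdown. Mir449c, which shares a 5p seed with Mir34b but lies in Cdc20b on chromosome 13, read −0.29 to −0.62 in the ES lines and was not listed.

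**Figure D4:**
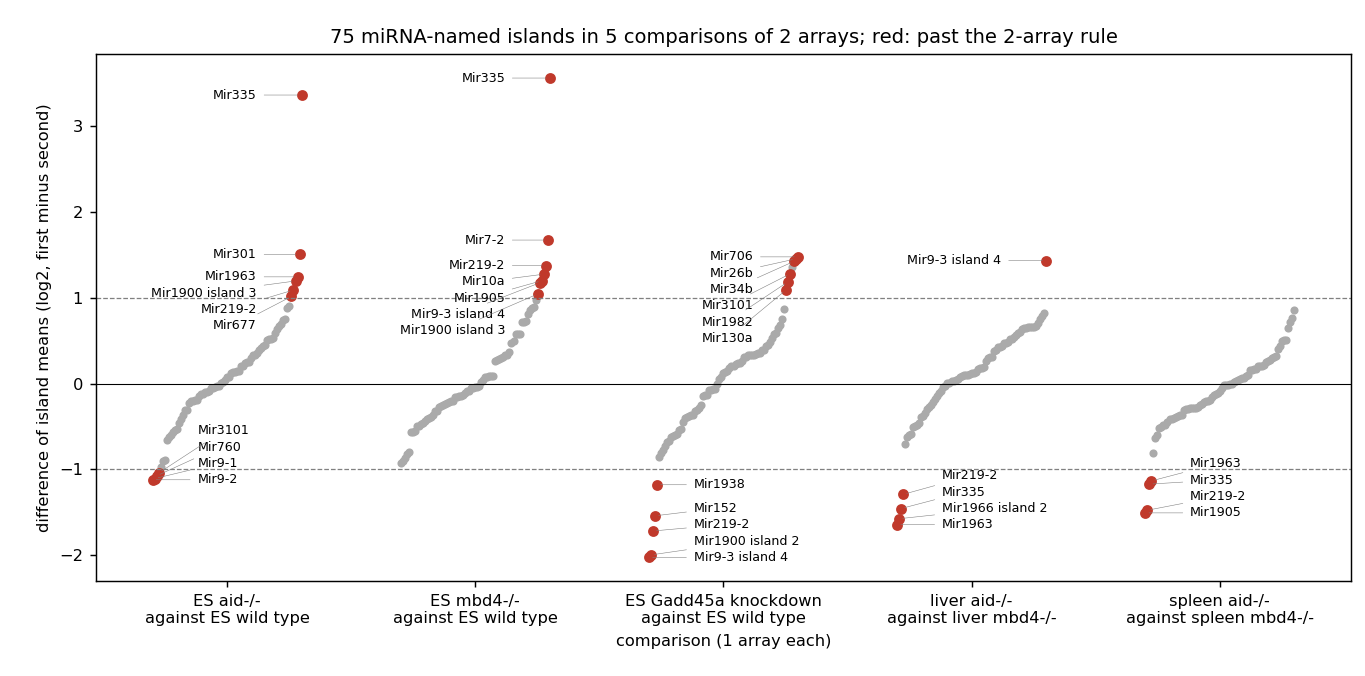
Each point is 1 of the 75 islands, with its difference between 2 arrays on the log2 axis, sorted within each of the 5 comparisons. Red points are the listed islands, and Mir335 is the highest in both ES knockouts, at 3.37 and 3.56.

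In the tissues nearly all listed islands were lower in aid-/- than in mbd4-/-. In liver 1 was listed as higher (1.4%) and 4 as lower (7.49%), and in spleen none as higher (0.29%) and 4 as lower (7.44%). Mir1963 was lower by −1.65 in liver and −1.13 in spleen, Mir335 by −1.46 and −1.17, and Mir219-2 by −1.29 and −1.48. The second Mir1966 island was lower in liver (−1.57, SD 0.25) and Mir1905 in spleen (−1.51, SD 0.24). The plateaus of the aid-/- arrays were 2.25 and 2.27, and those of the mbd4-/- arrays 3.98 and 3.63. With all arrays scaled to 1 plateau no island was listed in liver (1.21% of all higher, 0.714% lower), and 1 higher (1.24%) and 4 lower (3.18%) were listed in spleen. Mir1963 turned to 0.01 in liver and 0.21 in spleen, and Mir219-2 to 0.52 in liver. The one island higher in aid-/- liver was the fourth Mir9-3 island, by 1.43 (SD 1.18).

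Islands named for genes that make 1 mature miRNA were set side by side. The Mir9-3 gene on chromosome 7 had 4 islands with enough probes, at −9254 to −8944, −5970 to −4958, −564 to 252 and 3185 to 3918 bp from the miRNA by the older design. The third, at the miRNA itself (chr7:86649564-86650425, 8 probes), read 0.29 to 0.56 in the ES lines and −0.02 to 0.43 in the tissues. The first and second stayed between −1.26 and 0.24. The fourth (chr7:86653310-86654091, 6 probes) read 0.80, 0.72, 1.90 and −1.30 in aid-/-, wild type, mbd4-/- and Gadd45a knockdown ES cells, −0.35 in aid-/- liver, −1.78 in mbd4-/- liver, −0.30 in aid-/- spleen and −1.07 in mbd4-/- spleen. The 3 ES lines other than the knockdown were above all tissues, and the knockdown lay among the tissues. Mir9-1 (4 probes) read −1.48 to −0.38 and Mir9-2 (4 probes) −1.29 to 0.12 over the 8 arrays, with no array high. The neighbouring Mir3093 island (7 probes) was named for mir-9-1 in the older design, at −1200 to −376 bp, and read −0.77 to −0.17. Mir9-2 lies 6253 to 6603 bp on the 3′ side of its miRNA.

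The islands of the 2 Mir219 genes were far apart. Mir219-1 (chr17:34161971-34162368, 5 probes, named Ring1 in the older design) read −1.24 to −0.37 on all arrays, where Mir219-2 reached 3.76. The gap was largest on the mbd4-/- tissue arrays and smallest in the Gadd45a knockdown. The miR-124 genes, which make the most abundant miRNA of neurons, had no highly bound island: Mir124a-1 read −1.29 to −0.23, Mir124a-2 −0.60 to 0.75, and the islands of Mir124a-3 −0.87 to −0.07 and −1.04 to −0.36. Mir124a-2 was above the median in aid-/- liver (0.23) and aid-/- spleen (0.75) and below it on the other 6 arrays. Mir132 and Mir212, which share a seed and a locus next to Hic1, were below the median on all 8 arrays. Mir212 (8 probes) read −1.08 to −0.34, and Mir132 (2 usable probes) −1.26 to −0.02. Of the other seed pairs, Mir301 (seed AGUGCAA) was below the median on all 8 arrays, and Mir130a, with the same seed, ran from −0.60 to 0.69, highest in the knockdown. Mir17 and Mir106b (seed AAAGUGC) overlapped over the 8 arrays, at 0.34 to 1.32 and −0.89 to 0.47.

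**Figure D5:**
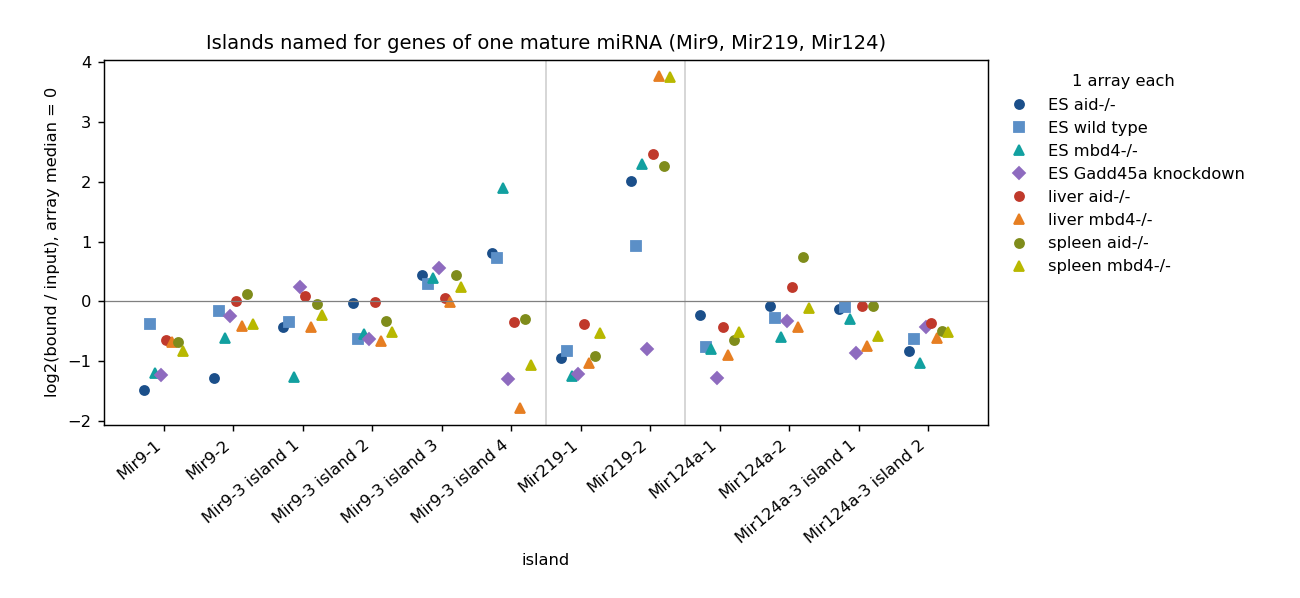
Points are island means of log2(bound over input), with 1 symbol per array, for islands named for the Mir9, Mir219 and Mir124 genes; grey lines part the families. Mir219-2 reaches 3.76 where Mir219-1 stays below 0, and the fourth Mir9-3 island spreads from −1.78 to 1.90.

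The genes of the miRNA machinery were read at their own islands. Of 22 genes on the list, 18 had an island, 20 islands in all. None passed limma for ES cells against tissues, where 0.0744% of all islands were higher and 0.171% lower. Drosha, which cuts the primary transcript, read −0.25 to −1.21 in the ES lines and −0.13 to 0.26 in the tissues, a difference of −0.87 (SE 0.24, limma adjusted p = 0.16). Dicer1 read −0.42 to −0.13 on all arrays. By the 2-array rule, 1 island of Ddx6, a helicase of the silencing complex, was higher in ES mbd4-/- (by 1.09, SD 1.39), beside 7.55% of all islands. In the Gadd45a knockdown 3 islands were higher (6.66% of all), of Ddx6 (1.16, SD 1.38), Ago2 (1.01, SD 1.22) and Ago4 (1.36, SD 1.40). At each of these the SD over probes was larger than the difference. The other Ago2 island was lower (−1.05, SD 0.31), beside 6.47% of all islands. In ES aid-/- and in the tissue comparisons none was listed, beside 0.29% to 8.7% of all islands in either direction.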

How the data were processed

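Methylated DNA bound by an antibody (Cy5) and input DNA (Cy3) of 8 samples were hybridised to 2-colour Agilent mouse CpG island arrays, all in the same dye orientation. The authors deposited scanner files whose processed signals are intensities, background-subtracted and dye-normalized per the file headers, and a log10 ratio of red over green. A deposited value table holds a processed score per probe. Its scale and centring are not stated; column medians ran from −0.21 to −0.03, its correlation with the scanner ratios from 0.90 to 0.97, and it was scaled by 1.28. Positions are in build mm9 per the file headers.

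Of 88737 probes that were not controls, 416 had no position on a chromosome used here, 132 were outliers and 7187 had dim input, and 81025 were used. Log2(Cy5 over Cy3) was centred on each array's median and averaged over islands of at least 3 probes. Tests used limma 3.58.1 in R 4.3.3 with Benjamini-Hochberg adjustment over all islands at 0.05, and were checked on simulated data. Tables and plots used Python 3.11.15, pandas 2.3.3, numpy 2.4.6, scipy 1.17.1 and matplotlib 3.10.9. The number of arrays limits the precision.

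Islands were named by rule: those past a test, up to 6 in each direction past the rule for 2 arrays, the 5 highest and 5 lowest means, and those sharing a seed or number. Others were named for their role, lack of overlap or because they completed a count. The members and lists were chosen with earlier results of these data known. Alternatives were another centring, 1 plateau, a GC correction, normexp (offset 50, on median signals), the deposited values, other probe filters and islands, blocks and leaving out arrays.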

Additional observations from a re-analysis of the deposited data

Results flagged for a closer look

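The island of Mir671 read −1.63 in the Gadd45a knockdown, and the gap to the nearest of the other 3 ES arrays was 0.907 of the range of the 4. The SD over its 3 probes on that array was 2.60. Dixon's test marks such a sample, and chance marks about 1 in 20 groups. Among the 26 islands screened, Mir671 was the only one marked. The fourth Mir9-3 island differed between aid-/- and mbd4-/- by −1.10 in ES cells and by 1.43 in liver, in opposite directions, with 1 array on each side. By the rule for 2 arrays, 1.92% of all islands were lower in aid-/- in ES cells and 1.4% higher in liver. The SD over probes was 0.33 in ES cells and 1.18 in liver, where 4 of 6 bound probes were above background in aid-/-. With 1 plateau no member was listed in liver. The difference between the 2 cell types was not tested. In spleen the same contrast gave 0.77.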

How the results depend on the processing

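For ES cells against tissues, 1 island was higher and none lower by limma. With the deposited values 1 of 52 was higher (0.405% of all islands), which was Mir7-2, and Mir10a could not be tested. The count of higher islands was 2 with 1 plateau (0.469% of all islands), 5 with genotype as a block (4.74%), and 0 with normexp, without the dim filter, with islands of 1 probe, with regions of all probes and with scan day as a block; leaving out each array gave 0 to 1. The count of lower islands was 1 with low mode centring (0.811%), 3 with 1 plateau (2.41%), 3 of 52 with the deposited values (3.54%) and 2 with genotype as a block (3.96%); leaving out each array gave 0 to 1. For aid-/- against mbd4-/-, leaving out each array gave 0 to 1 higher and 0 to 3 lower islands (up to 0.469% and 6.92% of all). Scan day could not be a block there, since every aid-/- array was scanned on day 1 and no mbd4-/- array was. A block of slide was not run for this contrast. Liver against spleen gave 0 members in both directions under all alternatives run. With the deposited values, which held 52 members, 0.16% of all islands were higher and 0.0426% lower in liver.

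Percentages here are shares of all islands. In ES aid-/- against wild type (6 higher, 4 lower), 1 plateau gave 2 higher (3.65%) and 0 lower (1.07%). GC correction gave 3 higher (6.57%) and 2 lower (2.19%), and normexp 1 higher (1.98%) and 0 lower (0.0223%). The deposited values gave 3 higher (3.39%) and 2 lower (2.62%) of 52 members, and low mode 0 lower (1.46%). In ES mbd4-/- (7 higher), 2 were higher with 1 plateau (2.95%), 1 with normexp (1.18%) and 4 of 66 members with the deposited values (4.32%). In the Gadd45a knockdown (6 and 5), normexp gave 0 higher (0.937%) and 3 lower (5.29%), and 1 plateau 9 lower (7.64%). In liver (1 and 4), low mode gave 4 higher (4.47%), and 1 plateau 0 higher (1.21%) and 0 lower (0.714%). Normexp gave 0 higher there (0.0967%), and the deposited values 0 of 66 members lower (2.06%). In spleen (0 and 4), 1 plateau gave 1 higher (1.24%). The deposited values gave 1 higher (0.625%) and 1 lower (4.99%) of 66 members in spleen. Of the islands of miRNA processing genes, 4 were past the rule for 2 arrays, 0 with normexp and 2 with the deposited values. Directions turned for Mir130a in the knockdown (−0.37 with normexp), for Mir1963 in liver (0.01) and spleen (0.21) with 1 plateau, and for Mir219-2 in liver (0.52 with 1 plateau, 0.31 with the deposited values). The cause was not tested.

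Over all islands, the share of listed islands that were higher moved from 78% to 98.9% with normexp and 56.4% with the deposited values in ES aid-/-, from 72.7% to 91.4% with normexp in ES mbd4-/-, from 50.7% to 15% with normexp in the knockdown, from 15.7% to 62.9% with 1 plateau in liver, and from 3.75% to 28.1% with 1 plateau in spleen. Low mode centring moved the median of all islands from 0.08 to 0.22 in ES aid-/- and from 0.05 to 0.30 in liver.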
